A study of Mus musculus with 24 samples.

Results

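Transcript levels of 10 genes linked to FOXO transcription factors and to quiescence, the resting state outside the cell cycle, were followed in developing mouse thymocytes with and without interleukin 7 (IL7). The genes were Foxo1, Foxo3, Klf2, Pik3ip1, Gadd45a, Ddit4, Ccng2, Sesn1, Btg1 and Irs2. All probes annotated to them were taken, 15 of the 25697 probes on the array. A gene was reported where the detection p-value of a probe, which ranks it among the negative-control beads, fell below 0.05 on 4 or more of the 24 arrays. By this rule 9 of the 10 genes were reported, of 8820 genes measured in all. The single Foxo3 probe was above background on 1 array and gave no level. All 9 reported genes were above background on 24 of 24 arrays.

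The cells were CD4 CD8 double-negative (DN) thymocytes from C57BL/6J mice carrying the intact receptor gene (Il7r+/+), negative for lineage markers and cKit. The DN3a gate took CD25+ CD71lo FSClo cells, the DN3b gate CD25+ CD71hi FSChi cells and the DN4 gate CD25- CD71hi FSChi cells. After each of 4 independent sorts, cells of every subset rested for 1 h and were then kept for 3 h untreated or with 10 ng/ml IL7. This gave 6 groups of 4 arrays, with 1 untreated and 1 IL7-treated culture of each subset in every sort. Each culture is a bulk sample, in which fewer expressing cells and less RNA per cell cannot be told apart. The labels call the sorts independent and do not give the number of mice behind each, so SE and p measure the spread between sorts. The design text also mentions technical replicates but does not say which arrays they are, and n, SE and p take the 4 sorts as separate samples. Each fit takes 1 spread per gene from all subsets together and moves it toward the spread typical of all genes. For IL7 a gene therefore has the same SE in every subset, however its sorts differ there.

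FOXO proteins are transcription factors held in check by the PI3K and AKT kinase pathway: AKT phosphorylates them, and they then leave the nucleus. When the pathway is quiet they enter the nucleus and activate genes of cell-cycle arrest, stress resistance and, in lymphocytes, homing and receptor expression. In the thymus, DN3a cells are largely resting before beta-selection, and DN3b and DN4 cells enlarge and divide after it. IL7 signals through JAK kinases to STAT5 and can also engage PI3K.

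Promoter sequences are shown for 3 members, because 2 of them hold the only motif matches among the members and Klf2 is the member that rose with IL7. Each is the stretch of 250 bases before the gene start, from RefSeq on GRCm38.p6, written 5′ to 3′ on the strand of the gene. Capitals mark a motif match.
Btg1, chr10:96616751-96617000, plus strand: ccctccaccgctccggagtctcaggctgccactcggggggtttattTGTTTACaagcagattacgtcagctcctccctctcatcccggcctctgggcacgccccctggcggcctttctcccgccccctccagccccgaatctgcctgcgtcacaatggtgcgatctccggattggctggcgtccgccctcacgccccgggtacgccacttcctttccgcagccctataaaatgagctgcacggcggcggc
Irs2, chr8:11008930-11009179, minus strand: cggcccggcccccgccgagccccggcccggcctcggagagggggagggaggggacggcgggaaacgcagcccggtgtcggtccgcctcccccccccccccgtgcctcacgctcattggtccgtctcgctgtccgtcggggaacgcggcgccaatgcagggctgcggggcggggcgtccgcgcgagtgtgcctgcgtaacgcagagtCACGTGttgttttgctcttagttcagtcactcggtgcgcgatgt
Klf2, chr8:72318812-72319061, plus strand: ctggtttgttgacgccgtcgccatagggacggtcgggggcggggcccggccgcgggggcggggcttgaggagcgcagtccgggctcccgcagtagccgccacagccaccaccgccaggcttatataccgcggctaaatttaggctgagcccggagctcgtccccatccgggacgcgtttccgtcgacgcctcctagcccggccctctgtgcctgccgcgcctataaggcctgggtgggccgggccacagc
The capitals in Btg1 are the FOXO core GTAAACA read on the opposite strand, 204 to 198 bases before the start. Those in Irs2 are the E-box CACGTG, 44 to 39 bases before the start. All 10 members matched the promoter table, with 11 windows because Sesn1 has 2 starts. The Pik3ip1 window, chr11:3330481-3330730, lies inside the annotated span of its gene (3319241 to 3342971), as does the second Sesn1 window in its own. Both strands were searched. The FOXO core stood in 1 of the 11 member windows and in 3.17% of all 32851 promoters. The E-box stood in 1 of 11 and in 6.02% of all promoters. Matches to the STAT motif TTCNNNGAA numbered 0 of 11, against 7.02% of all promoters, and the same held for the cyclic AMP response element TGACGTCA (1.55% of all) and the CCAAT-enhancer and ATF composite TGATGNAA (3.45% of all). No match says only that these letters are not in the window.

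Within a group, pairs of arrays had correlations of 0.976 to 0.992 over the probes. Of 10 genes marking DN thymocytes 8 were measured, and Cd4 and Cd8a, genes of later stages, were above background on 0 arrays. Il2ra, which encodes CD25, had mean log2 signals of 9.17 in untreated DN3a, 8.01 in DN3b and 5.14 in DN4 cells. Tfrc, which encodes CD71, was at 11.15, 11.95 and 11.20, so its transcript was not higher in DN4 than in DN3a cells (log2 difference 0.05 ± 0.10 SE, limma adjusted p = 0.715), although the DN4 gate took CD71hi cells. Some sorts carried more transcript of other blood lineages. Of 5 erythroid markers only Hba-a1 was measured, with a log2 signal of 8.50 to 10.46 in sorts 1 and 3 and of 4.51 to 4.99 in sorts 2 and 4. Alas2 and Epb42 were above background on 0 arrays. Of 8 granulocyte and monocyte markers 7 were measured, and the log2 of their summed signal in untreated DN4 cells was 7.42, 13.11, 12.96 and 8.60 in sorts 1 to 4, and 7.59, 12.92, 12.86 and 8.58 with IL7. The same sum ranged from 7.84 to 10.22 in DN3a and from 7.45 to 8.73 in DN3b cells. The part of these cells in the values below was not tested. Fits without sorts 2 and 3, and without sorts 1 and 3, keep 2 sorts each, and every member call that was lost without a single sort was also lost in both of them.

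IL7 changed 6 of the 9 genes in DN3a cells, 4 in DN3b cells and 2 in DN4 cells. Klf2, a zinc-finger factor that keeps T cells quiescent and controls their homing, rose in all 3 subsets. Pik3ip1, Gadd45a and Ccng2 fell in DN3a and DN3b cells, Ddit4 fell in DN3a and DN4 cells, and Btg1 fell in DN3a cells. A change is counted where the adjusted p from limma, in a fit to all 24 arrays that takes each of the 12 culture pairs as a block, adjusted over the 8820 genes, was under 0.05. In DN3a cells 1 member rose and 5 fell, where 21.0% of all genes were called, 9.44% higher and 11.5% lower. In DN3b cells 1 rose and 3 fell, against 9.81% of all genes, 4.80% higher and 5.01% lower. In DN4 cells 1 rose and 1 fell, against 2.44% of all genes, 1.86% higher and 0.578% lower. The members were chosen with earlier results of these data known, and all were detected on every array, unlike some of the other genes. These shares stand beside the counts as a description. The median log2 change of the 9 members was -0.30 in DN3a, -0.16 in DN3b and -0.09 in DN4 cells, and the median of all genes was -0.03, -0.01 and -0.01. Of 4 gamma-delta T cell markers Il17rb, Cd163l1 and Sox13 were measured. The log2 of their summed signal was 11.50 to 12.04 in untreated and 10.72 to 11.25 in IL7-treated DN3a cells. In DN3b cells it was 10.78 to 11.42 and 10.14 to 10.47. The markers did not move alike. With IL7 mean Il17rb went from 11.09 to 10.00 in DN3a and from 10.45 to 9.52 in DN3b cells. Cd163l1 went from 10.18 to 9.86 and from 9.47 to 9.14, and Sox13 rose from 6.17 to 6.39 and from 5.21 to 5.32. The part of gamma-delta T cells in the IL7 changes was not tested. All log2 changes are differences of normalized log2 signal, which understate the change of dim probes.

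**Figure D1:**
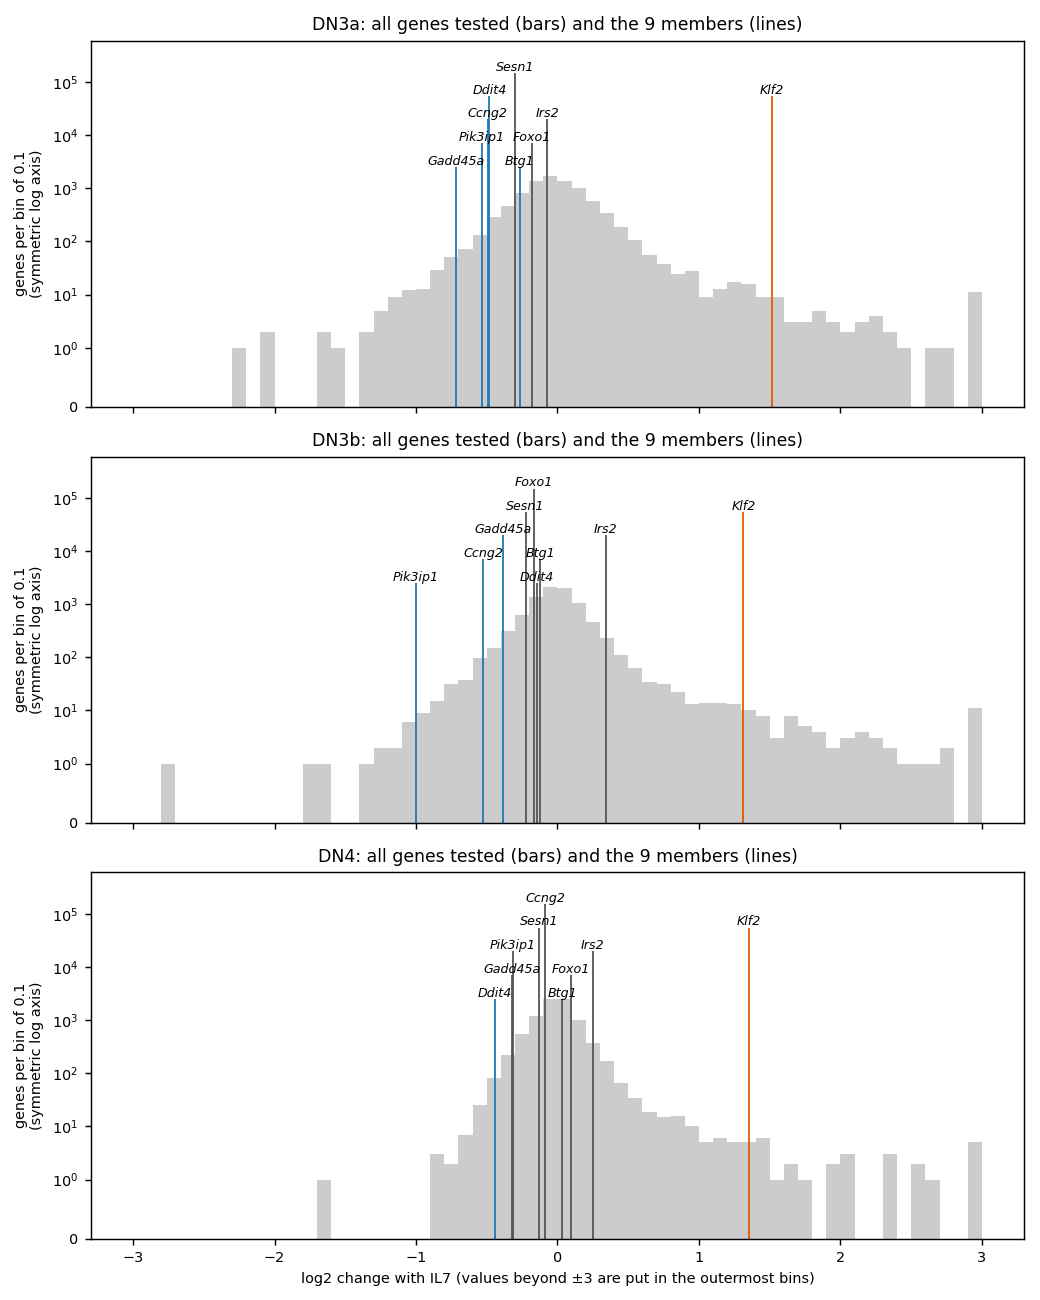
Log2 change with IL7 (x axis) of all 8820 genes, as bars of genes per bin of 0.1 on a symmetric log axis, and of the 9 members, as lines, in DN3a, DN3b and DN4 cells. Orange lines mark members that rose, blue lines members that fell and grey lines members not past the threshold. Klf2 lies at 1.51, 1.31 and 1.35, and the lowest member is Gadd45a in DN3a (-0.72), Pik3ip1 in DN3b (-1.0) and Ddit4 in DN4 cells (-0.44).

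Klf2 was the only member that rose past the threshold. In untreated DN3a cells its log2 signal was 10.47, 10.75, 9.74 and 10.63 in sorts 1 to 4, and with IL7 it was 11.89, 12.30, 11.45 and 12.02. In DN3b cells the untreated signals were 10.69, 11.26, 9.66 and 10.06, and the IL7-treated ones 11.83, 12.19, 11.28 and 11.62. In DN4 cells they were 10.28, 10.53, 9.19 and 9.81 untreated and 11.77, 11.82, 10.55 and 11.09 with IL7. Within each subset every IL7-treated array lay above every untreated array. Sort 2 was the highest and sort 3 the lowest of the 4 in all 6 groups. The rise was 2.86-fold in DN3a (log2 change 1.51 ± 0.10 SE, n = 4 pairs, limma adjusted p = 5.96e-07), 2.49-fold in DN3b (1.31 ± 0.10 SE, adjusted p = 2.98e-06) and 2.56-fold in DN4 cells (1.35 ± 0.10 SE, adjusted p = 4.41e-06). Without sorts 2 and 3, which carried the most granulocyte transcript in DN4 cells, the log2 change was 1.40, 1.35 and 1.39 (adjusted p = 0.0029, 0.00381 and 0.00737). The part of granulocytes in the rise was not tested.

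Pik3ip1 encodes a membrane protein that binds and inhibits the catalytic subunit of PI3K. Its log2 signal in DN3a cells was 11.25, 11.50, 11.57 and 11.49 untreated and 10.73, 10.88, 11.12 and 10.94 with IL7. In DN3b cells it was 9.33, 9.49, 9.61 and 9.74 untreated and 8.56, 8.55, 8.71 and 8.35 with IL7. In both subsets all 4 treated arrays lay below all 4 untreated arrays. The transcript fell by 0.54 ± 0.09 SE on the log2 scale in DN3a cells (1.45-fold lower, limma adjusted p = 0.00122) and by 1.00 ± 0.09 SE in DN3b cells (2.00-fold lower, adjusted p = 1.19e-05). In DN4 cells the signals of 9.12, 8.91, 9.61 and 9.17 untreated and 8.71, 8.81, 9.16 and 8.87 with IL7 overlapped, and the change of -0.32 ± 0.09 SE had an adjusted p of 0.131, lower in 4 of 4 pairs. That change passed the threshold when background was left uncorrected (adjusted p = 0.0392) or the authors' values were used (0.0357). The DN3a call was lost without sorts 2 and 3 (-0.54, adjusted p = 0.109).

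Gadd45a, a small stress-inducible protein of growth arrest and DNA repair, changed most in DN3a cells. Its log2 signal there was 8.73, 8.75, 7.99 and 8.26 untreated and 7.91, 8.26, 7.22 and 7.48 with IL7. The groups overlapped, but each treated culture lay below its own untreated partner. The transcript fell by 0.72 ± 0.10 SE (1.64-fold lower, limma adjusted p = 0.00027), and a dimmer second probe gave -0.50 (adjusted p = 0.0091). In DN3b cells the signal was 7.60, 7.58, 7.29 and 7.14 untreated and 7.13, 7.28, 6.64 and 7.03 with IL7. It fell there by 0.38 ± 0.10 SE (adjusted p = 0.0292). The second probe was at -0.33 (adjusted p = 0.121), and the DN3b call was lost without sort 1 (adjusted p = 0.154), without sort 3 (0.183), without sorts 1 and 3 (-0.21, 0.516) and without sorts 2 and 3 (-0.29, 0.337). In DN4 cells the signal was 7.37, 7.41, 7.06 and 7.43 untreated and 6.94, 7.43, 6.61 and 7.01 with IL7, a change of -0.32 ± 0.10 SE (adjusted p = 0.164), and the second probe gave -0.43 (0.0966). In DN4 cells sort 2 alone did not move down.

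Ddit4, also known as REDD1, restrains the growth kinase mTORC1 through the TSC complex. Its log2 signal in DN3a cells was 10.28, 10.16, 9.83 and 9.97 untreated and 9.34, 9.67, 9.61 and 9.69 with IL7. In DN4 cells it was 10.16, 10.03, 9.97 and 10.19 untreated and 9.73, 9.70, 9.47 and 9.70 with IL7. The treated and untreated arrays did not overlap in either subset. The transcript fell by 0.48 ± 0.10 SE in DN3a (1.40-fold lower, limma adjusted p = 0.00403) and by 0.44 ± 0.10 SE in DN4 cells (1.36-fold lower, adjusted p = 0.0347). In DN3a cells the change of single sorts ran from -0.93 in sort 1 to -0.22 in sort 3. In DN3b cells the signal was 9.79, 9.71, 9.57 and 9.74 untreated and 9.79, 9.60, 9.32 and 9.51 with IL7, and the change was -0.15 ± 0.10 SE (adjusted p = 0.467). The DN4 call was lost without sort 2, 3 or 4 (adjusted p = 0.169, 0.144 and 0.226). The DN3a call was lost without sorts 1 and 3 (-0.39, adjusted p = 0.0812) and without sorts 2 and 3 (-0.61, adjusted p = 0.0925).

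Ccng2 encodes cyclin G2, an unconventional cyclin associated with cell-cycle arrest. Its log2 signal in DN3a cells was 9.45, 9.69, 9.05 and 9.07 untreated and 8.91, 9.26, 8.57 and 8.54 with IL7. In DN3b cells it was 10.29, 10.21, 9.64 and 9.50 untreated and 9.61, 9.76, 9.35 and 8.81 with IL7. The groups overlapped because the sorts differed in level, with sorts 1 and 2 above sorts 3 and 4 throughout, while every pair moved down. The transcript fell by 0.49 ± 0.08 SE in DN3a (1.41-fold lower, limma adjusted p = 0.000718) and by 0.53 ± 0.08 SE in DN3b cells (1.44-fold lower, adjusted p = 0.000691). In DN4 cells it was at 10.51, 10.44, 9.75 and 9.92 untreated and at 10.58, 10.30, 9.74 and 9.65 with IL7, a change of -0.09 ± 0.08 SE (adjusted p = 0.789). The DN3a change was -0.47 without sorts 1 and 3 (adjusted p = 0.0502) and -0.53 without sorts 2 and 3 (0.0573), about as large as over all sorts but not past the threshold.

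Btg1 encodes an antiproliferative adaptor of the messenger RNA deadenylase machinery, which in mouse T cells helps to maintain quiescence. Its log2 signal in DN3a cells was 11.51, 11.94, 11.70 and 11.93 untreated and 11.41, 11.58, 11.60 and 11.43 with IL7. The transcript fell by 0.27 ± 0.09 SE (1.20-fold lower, limma adjusted p = 0.0416), with overlapping groups and single sorts from -0.50 to -0.10. This call was lost when any 1 of the 4 sorts was left out (adjusted p from 0.0506 to 0.246). Of 2 dimmer probes of Btg1, the brighter gave -0.33 (adjusted p = 0.0164) and the other -0.02 (adjusted p = 0.954). A further Btg1 probe was above background on 0 arrays. In DN3b cells the signal ranged from 10.79 to 10.95 untreated and from 10.72 to 10.83 with IL7, and in DN4 cells from 10.92 to 11.25 and from 10.95 to 11.22. Neither change passed the threshold, at -0.12 ± 0.09 SE and 0.03 ± 0.09 SE (adjusted p = 0.488 and 0.949).

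The other 3 members did not pass the threshold with IL7 in any subset. Foxo1, the FOXO factor that in T cells maintains Il7r and Klf2, was at 8.66, 9.12, 8.83 and 8.89 in untreated DN3a cells and at 8.55, 9.02, 8.55 and 8.64 with IL7, a change of -0.18 ± 0.08 SE (limma adjusted p = 0.125, lower in 4 of 4 pairs). Its changes were -0.16 ± 0.08 SE in DN3b (adjusted p = 0.256) and 0.09 ± 0.08 SE in DN4 cells (adjusted p = 0.747). Sesn1, a sestrin that restrains mTORC1 when amino acids are scarce, was at 11.06, 10.86, 10.47 and 10.96 in untreated DN3a cells and at 10.44, 10.77, 10.28 and 10.66 with IL7. Its change was -0.30 ± 0.10 SE (adjusted p = 0.0585), which passed the threshold when background was left uncorrected (0.0124), the authors' values were used (0.0109) or detection was required on at least 12 arrays (0.0485). Its changes in DN3b and DN4 cells were -0.23 ± 0.10 SE and -0.13 ± 0.10 SE (adjusted p = 0.237 and 0.725). A dimmer second probe was at -0.33, -0.47 and -0.29 in DN3a, DN3b and DN4 cells (adjusted p = 0.12, 0.0543 and 0.472), not past the threshold.

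Irs2, an adaptor that couples insulin and cytokine receptors to PI3K, was in DN3b cells at 6.68, 6.33, 6.46 and 6.41 untreated and 7.03, 6.47, 7.0 and 6.75 with IL7. Every pair moved up, and the change of 0.34 ± 0.10 SE had a limma adjusted p of 0.0585. It passed the threshold with cyclic loess normalization (adjusted p = 0.0462) and with the stricter filter (adjusted p = 0.0476). In DN3a cells Irs2 was at 7.16, 6.95, 7.09 and 7.21 untreated and at 7.01, 6.85, 7.03 and 7.22 with IL7, which is a change of -0.07 ± 0.10 SE (adjusted p = 0.682). In DN4 cells it was at 6.71, 6.65, 6.58 and 6.15 untreated and at 6.56, 6.77, 7.09 and 6.66 with IL7, a change of 0.25 ± 0.10 SE (adjusted p = 0.364).

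**Figure D2:**
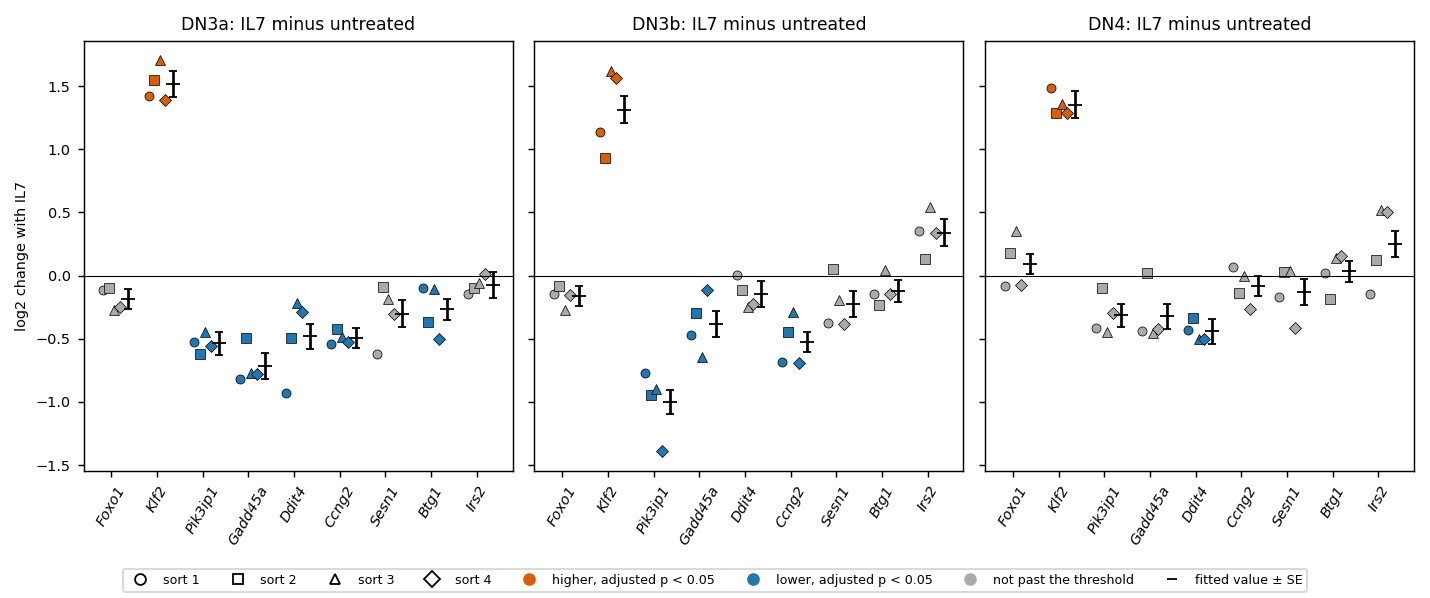
Log2 change with IL7 (y axis) of each member in DN3a, DN3b and DN4 cells, with 1 point for each of the 4 sorts and the fitted value ± SE beside them. Orange and blue points mark members that rose and fell past the threshold. Klf2 is above 0 in every sort and subset, and Pik3ip1 is below 0 in every sort and subset, with its lowest value, -1.39, in sort 4 of DN3b cells.

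The IL7 changes were then compared between subsets. For none of the 9 members did the difference of IL7 changes pass the threshold in limma. Among all genes 1.70% were called for DN3b minus DN3a (0.737% higher and 0.964% lower), 0.306% for DN4 minus DN3b (0.0680% higher and 0.238% lower) and 5.36% for DN4 minus DN3a (2.63% higher and 2.73% lower). Pik3ip1 came nearest for DN4 minus DN3b. Its change in DN4 cells was less negative than in DN3b cells by 0.69 ± 0.13 SE (adjusted p = 0.0548), in 4 of 4 sorts (0.35, 0.85, 0.45 and 1.09). It passed when background was left uncorrected (adjusted p = 0.0027), the authors' values were used (0.00224), or cyclic loess (0.0408) or the stricter filter (0.0484) was applied. Ccng2 came nearest for DN4 minus DN3a, at 0.41 ± 0.11 SE (adjusted p = 0.0566), higher in 4 of 4 sorts, and it passed when background was left uncorrected (0.0246), the authors' values were used (0.0234) or the stricter filter was applied (0.0447). Gadd45a, at 0.39 ± 0.14 SE for DN4 minus DN3a (adjusted p = 0.145), passed under the first of these settings (0.0274) and the second (0.0242), and Ccng2 for DN4 minus DN3b, at 0.44 ± 0.11 SE (adjusted p = 0.157), did so too (0.0429 and 0.04). The dimmer second Gadd45a probe gave only 0.07 for DN4 minus DN3a (adjusted p = 0.881). Klf2 differed between subsets by -0.20 ± 0.15 SE (DN3b minus DN3a), 0.04 ± 0.15 SE (DN4 minus DN3b) and -0.16 ± 0.15 SE (DN4 minus DN3a), with adjusted p of 0.561, 0.966 and 0.606.

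The untreated cultures were next compared between subsets, in a fit to the 12 untreated arrays that takes each of the 4 sorts as a block. These arrays are also the controls of the IL7 comparisons, so the 2 sets of values are not independent. From DN3a to DN3b, Pik3ip1, Gadd45a, Btg1, Irs2, Sesn1 and Ddit4 were lower, and Ccng2 and Foxo1 were higher. That made 2 members higher and 6 lower, where 55.9% of all genes were called, 24.9% higher and 31% lower. The median log2 difference was -0.61 over the members and -0.03 over all genes. Markers of other cell types also differed between subsets. Of 4 B cell markers Cd79b and Ms4a1 were measured, and the log2 of their summed signal was 10.17 to 10.66 in untreated DN3a, 8.86 to 9.27 in DN3b and 8.62 to 8.78 in DN4 cells, with Cd79a above background on 0 arrays. Of 4 natural killer and cytotoxic markers only Nkg7 was measured, at 10.82 to 11.12, 7.58 to 8.55 and 5.74 to 6.37, with Klrd1, Ncr1 and Gzmb above background on 0 arrays. Their part in the differences between subsets was not tested. Klf2 did not pass, at 0.02 ± 0.15 SE (limma adjusted p = 0.918), with single sorts from -0.57 to 0.51.

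Pik3ip1 had the widest range of the members. Its untreated DN3b arrays, 9.33 to 9.74, lay far below its untreated DN3a arrays, 11.25 to 11.57, so that it was 3.75-fold lower in DN3b cells (log2 difference -1.91 ± 0.11 SE, limma adjusted p = 4.15e-07). Gadd45a was 2.04-fold lower (-1.03 ± 0.12 SE, adjusted p = 3.52e-05), Btg1 1.85-fold lower (-0.89 ± 0.09 SE, adjusted p = 1.47e-05) and Irs2 1.55-fold lower (-0.63 ± 0.12 SE, adjusted p = 0.000954). For these 4 genes, and for Ddit4 below, the DN3b and DN3a arrays did not overlap. The share of all genes without such overlap was not counted. The second Gadd45a probe gave -0.97, and the other Btg1 probes -0.91 and -0.43, all past the threshold. Sesn1, from 10.01 to 10.51 in DN3b and from 10.47 to 11.06 in DN3a cells, was 1.53-fold lower (-0.61 ± 0.09 SE, adjusted p = 0.000164), and its second probe gave -0.41 (adjusted p = 0.0176). Ddit4 was 1.28-fold lower (-0.36 ± 0.08 SE, adjusted p = 0.00396), a call lost without sorts 2 and 3 (0.0859) and without sorts 1 and 3 (0.0793).

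Ccng2 went the other way, 1.51-fold higher in untreated DN3b than in DN3a cells (0.59 ± 0.09 SE, limma adjusted p = 0.000253), higher in 4 of 4 sorts. Foxo1 was at 9.18, 9.28, 9.23 and 8.89 in untreated DN3b cells against 8.66, 9.12, 8.83 and 8.89 in DN3a cells. Its difference of 0.27 ± 0.10 SE (adjusted p = 0.0428) was 0.51 in sort 1 and close to 0 in sort 4, and the call was lost without sort 1, 2 or 3 (adjusted p = 0.182, 0.0862 and 0.134).

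Between untreated DN4 and DN3b cells 2 members, Ddit4 and Sesn1, were higher and 0 were lower, where 4.02% of all genes were called, 1.45% higher and 2.57% lower. Ddit4 returned to the DN3a range, with 9.97 to 10.19 in DN4 against 9.57 to 9.79 in DN3b cells and a difference of 0.39 ± 0.08 SE (limma adjusted p = 0.0312). Sesn1 was at 10.71, 10.50, 10.32 and 10.92 in DN4 and at 10.25, 10.14, 10.01 and 10.51 in DN3b cells, a difference of 0.39 ± 0.09 SE (adjusted p = 0.0386). Both genes were higher in 4 of 4 sorts, and both calls were lost when any 1 sort was left out (adjusted p from 0.0804 to 0.16). The second Sesn1 probe gave 0.19 (adjusted p = 0.503). Without sorts 2 and 3, the sorts rich in granulocyte transcript, the differences were 0.41 for Ddit4 (adjusted p = 0.298) and 0.44 for Sesn1 (0.29), not past the threshold. The part of granulocytes in these differences was not tested. Klf2 was at -0.47 ± 0.15 SE (adjusted p = 0.124) and Pik3ip1 at -0.34 ± 0.11 SE (adjusted p = 0.145). Both passed when background was left uncorrected (0.0204 and 0.0441) or the authors' values were used (0.0195 and 0.0416).

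From DN3a to DN4, 6 members were lower and 1 was higher, where 59.2% of all genes were called, 26.8% higher and 32.4% lower. The lower members were Pik3ip1 (-2.25 ± 0.11 SE, 4.75-fold, limma adjusted p = 1.04e-07), Gadd45a (-1.11 ± 0.12 SE), Btg1 (-0.69 ± 0.09 SE), Irs2 (-0.58 ± 0.12 SE), Klf2 (-0.45 ± 0.15 SE) and Sesn1 (-0.22 ± 0.09 SE). Ccng2 was 1.79-fold higher (0.84 ± 0.09 SE, adjusted p = 1.88e-05), with all 4 DN4 arrays above all 4 DN3a arrays. The Klf2 call (adjusted p = 0.0234) was lost without sort 3 (0.0897) or sort 4 (0.0672), and the Sesn1 call (adjusted p = 0.0461) without sort 1, 2 or 3 (0.164, 0.209 and 0.0652). Without sorts 2 and 3, the difference was -2.22 for Pik3ip1, -1.09 for Gadd45a, -0.73 for Btg1 and 0.95 for Ccng2, all still past the threshold, and -0.51 for Klf2 (adjusted p = 0.0907) and -0.20 for Sesn1 (0.311), which were not. Without sorts 1 and 3 these 2 were at -0.52 (0.132) and -0.20 (0.241). The second Gadd45a probe gave -0.62 (adjusted p = 0.00889), the other Btg1 probes -0.63 (0.000266) and -0.17 (0.2), and the second Sesn1 probe -0.22 (0.16). Ddit4 (0.03 ± 0.08 SE, adjusted p = 0.785) and Foxo1 (0.08 ± 0.10 SE, adjusted p = 0.514) did not pass. Of 4 mature T cell markers Cd6 and Ccr7 were measured, and Cd4 and Cd8a were above background on 0 arrays. The log2 of the summed signal was 7.11 to 7.95 in untreated DN3a, 7.39 to 7.56 in DN3b and 8.36 to 8.89 in DN4 cells. Mean Cd6 was at 7.24, 7.21 and 8.42. Ccr7, above background on 8 of 24 arrays, was at 4.94, 4.94 and 5.12. The part of mature T cells in the DN4 values was not tested.

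The same comparisons over the 12 IL7-treated arrays gave the following values. From DN3a to DN3b, 2 members were higher and 4 lower, where 50.7% of all genes were called, 23.0% higher and 27.7% lower. Pik3ip1 was 5.18-fold lower (-2.37 ± 0.09 SE, limma adjusted p = 3.99e-08), Btg1 was at -0.74 ± 0.08 SE, Gadd45a at -0.70 ± 0.10 SE and Sesn1 at -0.53 ± 0.09 SE, all past the threshold. The other Btg1 probes gave -0.50 and -0.53, the second Gadd45a probe -0.80 and the second Sesn1 probe -0.55, also past it. Ccng2 (0.56 ± 0.12 SE) and Foxo1 (0.29 ± 0.10 SE) were higher, and the Foxo1 call (adjusted p = 0.0307) was lost without sort 1, 2 or 3 (0.139, 0.0714 and 0.101). The Ccng2 call (adjusted p = 0.00341) was lost without sorts 1 and 3 (0.38, adjusted p = 0.0662) and without sorts 2 and 3 (0.48, adjusted p = 0.0982). Irs2 (-0.22 ± 0.13 SE, adjusted p = 0.203) and Ddit4 (-0.02 ± 0.12 SE, adjusted p = 0.888), which were lower in untreated DN3b cells, did not pass with IL7, and Klf2 was at -0.18 ± 0.13 SE (adjusted p = 0.281). The difference of IL7 changes, DN3b minus DN3a, was 0.41 ± 0.15 SE for Irs2 (adjusted p = 0.187) and 0.34 ± 0.14 SE for Ddit4 (0.272). Neither passed the threshold.

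Between IL7-treated DN4 and DN3b cells 4 members were higher and 0 lower, where 6.03% of all genes were called, 2.44% higher and 3.59% lower. They were Ccng2 (0.69 ± 0.12 SE, limma adjusted p = 0.00953), Sesn1 (0.48 ± 0.09 SE, adjusted p = 0.00932), Btg1 (0.35 ± 0.08 SE, adjusted p = 0.0353) and Pik3ip1 (0.35 ± 0.09 SE, adjusted p = 0.0496), each higher in 4 of 4 sorts. The Btg1 and Pik3ip1 calls were lost when any 1 sort was left out (adjusted p from 0.0531 to 0.231), the Ccng2 call without sort 2 or 4 (0.0574 and 0.0687) and the Sesn1 call without sort 1, 3 or 4 (from 0.053 to 0.0618). The other Btg1 probes gave 0.17 (adjusted p = 0.425) and 0.37 (0.355), and the second Sesn1 probe 0.37 (0.171), none past the threshold. Klf2 was lower in 4 of 4 sorts without passing (-0.42 ± 0.13 SE, adjusted p = 0.096), and it passed without sort 1 (0.0438), with background uncorrected (0.0152) and with the authors' values (0.0143). From DN3a to DN4 with IL7, 2 members were higher and 4 lower, where 53.9% of all genes were called, 24.5% higher and 29.5% lower. Ccng2 (1.25 ± 0.12 SE, 2.38-fold) and Foxo1 (0.36 ± 0.10 SE) were higher, and Pik3ip1 (-2.03 ± 0.09 SE), Gadd45a (-0.72 ± 0.10 SE), Klf2 (-0.61 ± 0.13 SE) and Btg1 (-0.39 ± 0.08 SE) were lower. The Foxo1 call (adjusted p = 0.0102) was lost without sort 3 (0.0732). The second Gadd45a probe gave -0.55 (adjusted p = 0.00893), and the other Btg1 probes -0.33 (0.0139) and -0.16 (0.501, not past the threshold). Without sorts 2 and 3, Klf2 was at -0.52 (adjusted p = 0.106), Btg1 at -0.34 (0.141) and Foxo1 at 0.25 (0.274). Without sorts 1 and 3, Klf2 was at -0.70 (0.0108), Btg1 at -0.36 (0.0669) and Foxo1 at 0.21 (0.222).

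**Figure D3:**
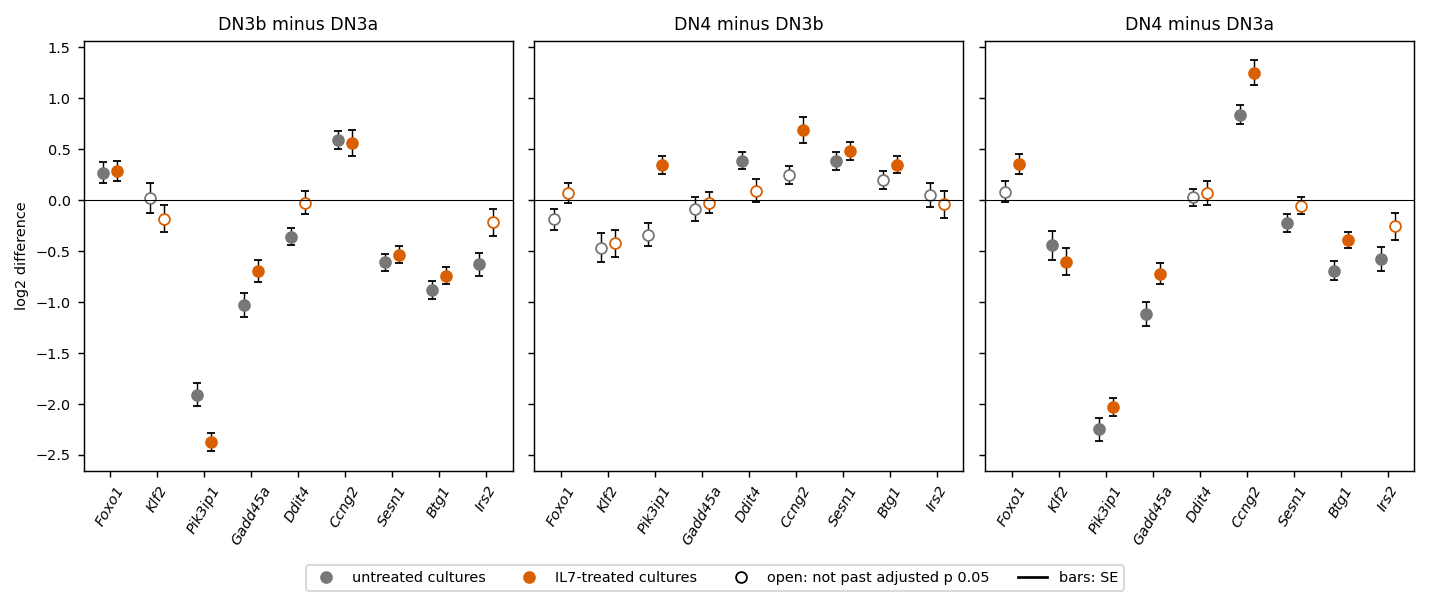
Log2 difference between subsets (y axis) of the 9 members in untreated (grey) and IL7-treated (orange) cultures, with SE as bars and open points for differences not past the threshold. Pik3ip1 is the lowest in the DN3b minus DN3a and DN4 minus DN3a panels, from -2.37 to -1.91, and Ccng2 is the highest, from 0.56 to 1.25.

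Over all 6 groups the members followed different orders. The group means of Pik3ip1 fell from untreated DN3a (11.45 ± 0.14 SD, n = 4) through IL7-treated DN3a (10.92 ± 0.16), untreated DN3b (9.54 ± 0.17), untreated DN4 (9.20 ± 0.29) and IL7-treated DN4 (8.89 ± 0.19) to IL7-treated DN3b (8.54 ± 0.15). Untreated DN3a, IL7-treated DN3a and untreated DN3b did not overlap with each other, and from untreated DN3b down every neighbouring pair did. Klf2 had all 3 IL7-treated groups above all 3 untreated groups, from 11.91 ± 0.35 SD in IL7-treated DN3a to 9.95 ± 0.59 SD in untreated DN4 cells, and every neighbouring pair overlapped. Gadd45a was highest in untreated DN3a (8.43 ± 0.37 SD) and lowest in IL7-treated DN4 cells (7.0 ± 0.34 SD). Ccng2 was highest in untreated DN4 (10.16 ± 0.38 SD) and lowest in IL7-treated DN3a cells (8.82 ± 0.34 SD).

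Btg1 was highest in untreated DN3a (11.77 ± 0.21 SD) and lowest in IL7-treated DN3b cells (10.77 ± 0.05 SD), and the only neighbours without overlap were IL7-treated DN3a and IL7-treated DN4. Ddit4 had untreated DN4 (10.09 ± 0.11 SD) and untreated DN3a (10.06 ± 0.20 SD) above the other 4 groups, which ran from 9.70 to 9.56 and overlapped with each other. Sesn1 ranged from 10.84 ± 0.26 SD in untreated DN3a to 10.00 ± 0.18 SD in IL7-treated DN3b, Irs2 from 7.10 ± 0.11 SD in untreated DN3a to 6.47 ± 0.15 SD in untreated DN3b, and Foxo1 from 9.14 ± 0.17 SD in untreated DN3b to 8.69 ± 0.22 SD in IL7-treated DN3a. In Foxo1, Gadd45a, Ccng2, Sesn1 and Irs2 every neighbouring pair overlapped.

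**Figure D4:**
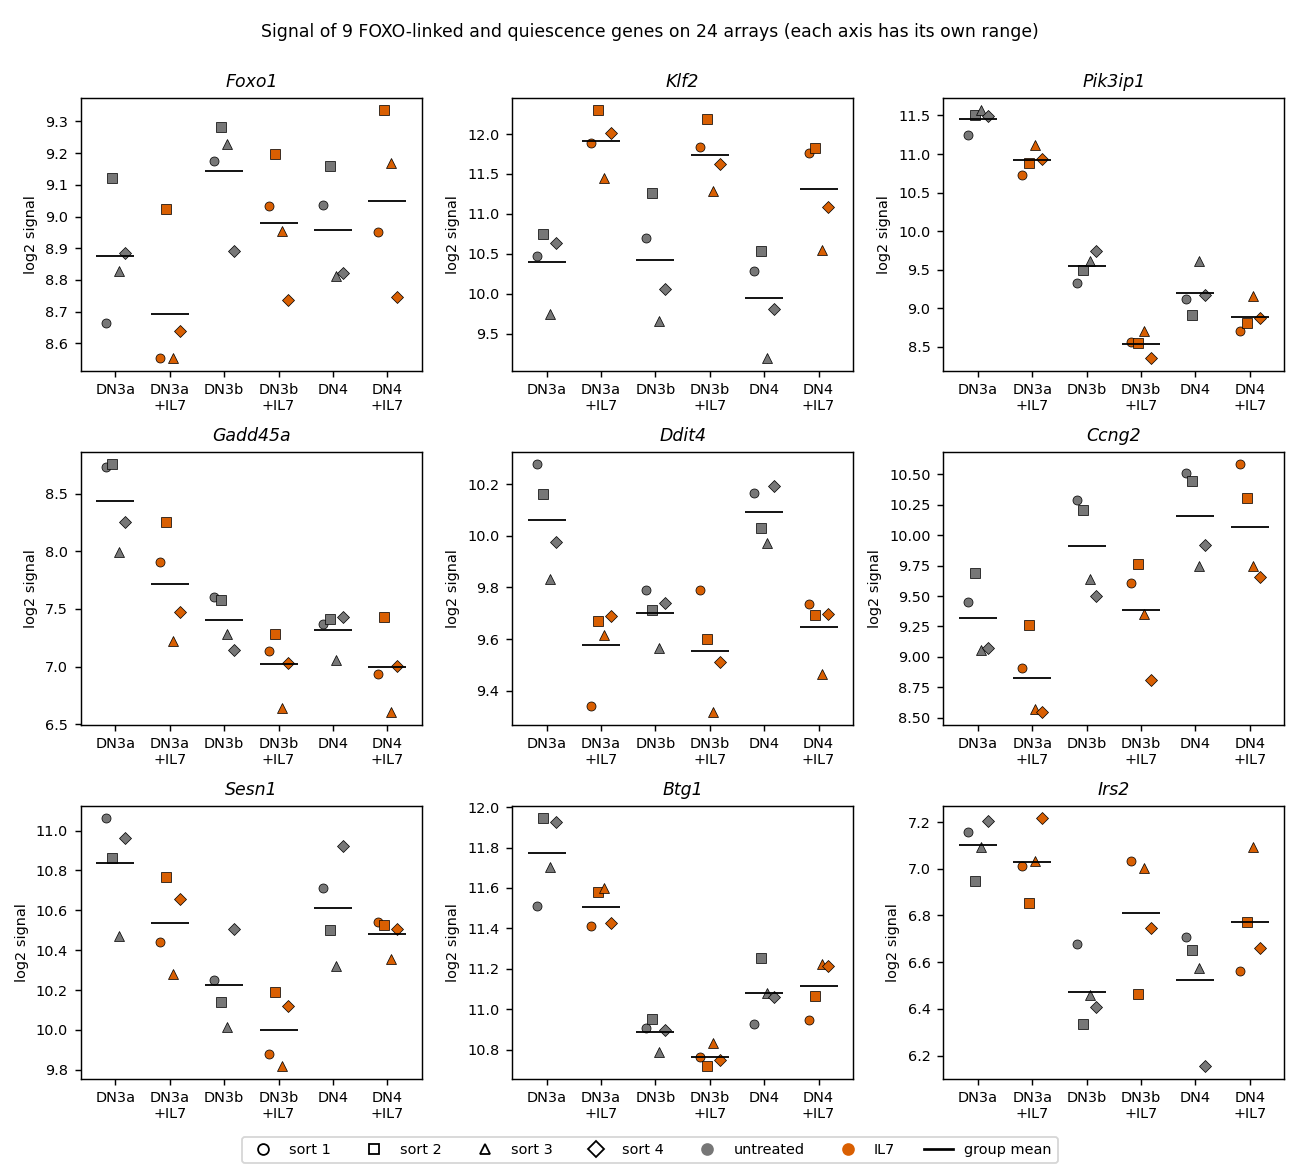
Normalized log2 signal (y axis, with its own range in each panel) of the 9 members on the 24 arrays. Each point is a culture, its shape gives the sort, grey is untreated, orange is IL7-treated and the line is the group mean. Klf2 rises with IL7 in every subset, and Pik3ip1 falls from about 11.45 in untreated DN3a to 8.54 in IL7-treated DN3b cells.

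Other genes of the pathway were described from fixed lists, some of which share genes, so their counts overlap. Their counts stand against all genes, of which IL7 called 21.0% in DN3a, 9.81% in DN3b and 2.44% in DN4 cells, and of which 55.9% were called between untreated DN3b and DN3a cells. Of 20 genes of PI3K and AKT signalling 16 were measured. In DN3a cells 3 rose and 4 fell with IL7, in DN3b and in DN4 cells 2 rose and 0 fell, and the list medians were 0.02, 0.04 and 0.03 against -0.03, -0.01 and -0.01 for all genes. Pik3cd, the catalytic subunit p110 delta of leukocytes, rose by 1.31 ± 0.09 SE in DN3a, 1.38 ± 0.09 SE in DN3b and 1.11 ± 0.09 SE in DN4 cells (limma adjusted p = 6.69e-07, 5.98e-07 and 8.34e-06). Sgk1, a kinase related to AKT that also phosphorylates FOXO proteins, rose by 1.31 ± 0.24, 3.01 ± 0.24 and 3.05 ± 0.24 SE. The rise of Sgk1 was larger in DN3b than in DN3a cells by 1.70 ± 0.34 SE (adjusted p = 0.0231) and in DN4 than in DN3a cells by 1.74 ± 0.34 SE (adjusted p = 0.0108). The regulatory subunit genes Pik3r3 (-0.96 ± 0.21 SE) and Pik3r1 (-0.66 ± 0.08 SE) fell in DN3a cells. In untreated cells from DN3a to DN3b 3 of 16 genes were higher and 4 lower, against 55.9% of all genes called, among them Pik3cd (-1.77), Pik3r1 (-1.28), Sgk1 (-0.68) and Pik3r2 (1.04).

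Of 16 genes of the TSC complex, AMPK and mTOR, the pathway in which Ddit4 and Sesn1 restrain mTORC1, 13 were measured. With IL7 1 rose and 1 fell in DN3a cells, 1 rose in DN3b cells and 0 were called in DN4 cells, where the list median was -0.01 as for all genes. Eif4ebp1, a repressor of translation initiation that mTORC1 inactivates, rose by 1.88 ± 0.11 SE in DN3a cells (limma adjusted p = 1.98e-07) and by 0.41 ± 0.11 SE in DN3b cells (adjusted p = 0.0323), and this rise was smaller in DN3b cells by 1.46 ± 0.16 SE (adjusted p = 0.000492 for the difference). Ulk1, a kinase that starts autophagy, fell by 0.35 ± 0.08 SE in DN3a cells. From untreated DN3a to DN3b cells 2 of 13 were higher and 5 lower, against 55.9% of all genes called, including Eif4ebp1 (2.44), Tsc1 (0.54), Rictor (-0.62) and Ulk1 (-0.57).

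Of 19 relatives of the members from the same gene families 14 were measured. Gadd45b rose by 2.70 ± 0.18 SE in DN3a cells (limma adjusted p = 5.75e-07, the untreated probe being detected on 3 of 4 arrays), was at least 3.49-fold higher with IL7 in DN3b cells (adjusted p = 4.32e-06) and at least 1.37-fold higher in DN4 cells (adjusted p = 0.0142), where 0 untreated arrays were above background. These bounds set the IL7-treated mean against the lowest signal among detected probes on each untreated array. Gadd45g rose by 0.98 ± 0.14 SE in DN3a and 1.26 ± 0.14 SE in DN3b cells, while Gadd45a fell in both. Sesn2 rose by 0.80 ± 0.15 SE and 0.64 ± 0.15 SE in the same subsets, and Sesn3, above background on 3 of 4 arrays in each group, fell by 0.47 ± 0.12 SE in DN3a cells. Tob2, an antiproliferative relative of Btg1, rose by 0.66 ± 0.08 SE in DN3b and 0.35 ± 0.08 SE in DN4 cells. In all, 3 of 14 rose and 4 fell in DN3a (21.0% of all genes called), 4 rose and 0 fell in DN3b (9.81%), and 2 rose and 0 fell in DN4 cells (2.44%). In untreated cells from DN3a to DN3b 1 was higher and 7 were lower (55.9% of all genes called), among them Tob2 (-1.02) and Klf3 (-0.66), with a list median of -0.30.

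Of 24 further genes known as FOXO targets in various cell types 20 were measured. With IL7 3 rose and 7 fell in DN3a (21.0% of all genes called), 2 rose and 6 fell in DN3b (9.81%), and 2 rose and 1 fell in DN4 cells (2.44%), with list medians of -0.16, -0.23 and -0.07. Bcl6, a transcriptional repressor, fell by 2.01 ± 0.10, 2.74 ± 0.10 and 1.69 ± 0.10 SE in the 3 subsets. Trib3, a stress-inducible pseudokinase, rose by 2.23 ± 0.14, 1.47 ± 0.14 and 0.77 ± 0.14 SE, and the cyclin-dependent kinase inhibitor Cdkn1a rose by 1.22 ± 0.19, 1.62 ± 0.19 and 0.93 ± 0.19 SE. Fasl, a death ligand, fell by 1.17 ± 0.13 SE in DN3a cells, and Il7r fell by 0.63 ± 0.18 SE in DN3b cells (limma adjusted p = 0.0431). From untreated DN3a to DN3b 2 of 20 were higher and 10 lower, against 55.9% of all genes called, among them Cdkn1a (-2.33), Txnip (-1.42), Bcl6 (-1.42) and Fasl, which was above background on 4 of 4 DN3a and 1 of 4 DN3b arrays, with a list median of -0.38.

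Of 17 other quiescence genes 16 were measured. Tob1, Btg2, Klf4 and Klf6 also stand in the list of relatives, and Cdkn1b and Rbl2 in that of FOXO targets. With IL7 1 rose and 2 fell in DN3a (21.0% of all genes called) and in DN3b cells (9.81%), and 1 rose and 1 fell in DN4 cells (2.44%). Ndrg1, a stress-responsive growth inhibitor, rose by 0.86 ± 0.08, 0.74 ± 0.08 and 0.56 ± 0.08 SE. Mxd4, which competes with MYC for its partner MAX, fell by 0.78 ± 0.10, 0.83 ± 0.10 and 0.50 ± 0.10 SE. Tob1 fell by 0.40 ± 0.12 SE in DN3a cells and Cdkn1b by 0.37 ± 0.11 SE in DN3b cells (limma adjusted p = 0.0317 and 0.0495). From untreated DN3a to DN3b 5 of 16 were higher and 5 lower, against 55.9% of all genes called, among them the cell-cycle inhibitor Cdkn2c (2.37 ± 0.14 SE) and the glucocorticoid-induced Tsc22d3 (-1.45 ± 0.12 SE). The list medians with IL7 were 0.03 in DN3a and 0.11 in DN3b cells, those of all genes -0.03 and -0.01.

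For the 3 members with the widest range of group means, the genes with the most similar profile were taken by the smallest root mean square difference over the 24 arrays, each gene centred on its own mean. For Pik3ip1, whose own values had a root mean square of 1.08 about their mean, they were Ctse (0.227), Grasp (0.253) and Large2 (0.266). For Gadd45a, with its own value at 0.564, they were Pdk1 (0.225), Rcbtb2 (0.238) and Tk2 (0.244). For Klf2, with its own value at 0.866, the nearest were Rras2 (0.439), Mpzl2 (0.442) and Gng2 (0.443), so that no gene came as near to Klf2 as to the other 2. The arrays share sorts and subsets, and the likeness is a description.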

How the data were processed

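RNA of 24 cultures (250 ng each) was read on Illumina mouse Ref8v2 beadchips. Per the file headers, the deposited scanner table pairs the linear intensity of each of 25697 probes with its detection p-value. Array medians ran from 93.3 to 119.8, so these intensities were not normalized between arrays. A second table holds the authors' log2 values. The design text names background subtraction, quantile normalization and log2, but all columns had a median of 6.734 and lay within 0.0841 of quantile-normalized uncorrected log2 intensities, uncentred, with higher values for more signal. GenomeStudio 2011.1 and R Bioconductor 2.13.0 appear in the submitters' processing notes.

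Intensities were normalized with neqc (limma 3.58.1, R 4.3.3, offset 16), which infers negative controls from the detection p-values. Probes with detection p under 0.05 on at least 4 arrays were kept (12939, of which 12158 were named), and the probe with the highest mean stood for each of 8820 genes. Symbols came from the platform annotation, with 23978 probes having 1 symbol, 0 several and 1719 none, and 23962 updated through gene identifiers. IL7 effects and their differences were fitted with lmFit and eBayes over 24 arrays with 12 culture pairs as blocks, and subset comparisons over 12 arrays with 4 sorts as blocks. In the first fit the culture pairs of a sort count as separate blocks, so differences of IL7 changes were not matched by sort. p-values were Benjamini-Hochberg adjusted over all genes, with a threshold of 0.05. The procedure was tested on simulated data. Sort numbers pair the cultures by label, and deviations from group means correlated at 0.238 or more within culture pairs, with 24 of 24 arrays closest to their own sort. The alternatives were another background correction, normalization, filter or probe rule, the authors' values, no block, and left-out sorts. All reported members are named for the IL7 change in each subset. In the other comparisons every member past the threshold is named, and a member left unnamed did not pass there. Also named are up to 4 genes past the threshold per list with the largest change, and the 3 nearest genes for 3 members. Members and lists were chosen with earlier results of these data known. The number of arrays limits the precision.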

Additional observations from a re-analysis of the deposited data

Results flagged for a closer look

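In 54 groups of 4 levels and 27 groups of 4 IL7 changes, the highest or lowest sort was compared with the other 3 by Dixon's gap, which chance alone exceeds in about 1 of 20 groups. In untreated DN4 cells Gadd45a had a log2 signal of 7.06 in sort 3, and the other 3 sorts lay between 7.37 and 7.43. In IL7-treated DN4 cells Ddit4 was at 9.47 in sort 3, and the others lay between 9.70 and 9.73. The IL7 change of Gadd45a in DN3a cells was -0.50 in sort 2 and from -0.82 to -0.77 in the others. In DN4 cells the IL7 change of Gadd45a was 0.0228 in sort 2 and from -0.45 to -0.42 in the others.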

How the results depend on the processing

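Of 45 gene and comparison results past the threshold, 22 kept their call under every alternative, and 0 of 108 changed direction while called. Over 1431 alternatives 109 lost a call and 25 gained it. The number of members past the threshold was 6 for IL7 in DN3a cells, 3 without sorts 1 and 3 and 2 without sorts 2 and 3, which leave 2 pairs. In DN3b cells it was 4, and 2 with no replicate block. In DN4 cells it was 2, 0 with no replicate block (Klf2 at adjusted p = 0.0513), 1 to 2 when single sorts were left out, and 1 without sorts 1 and 3, without sorts 2 and 3 or when only the 8 DN4 arrays were fitted. Differences of IL7 changes gave 0 members. For DN4 minus DN3b this became 2 without background correction, 2 with the authors' values, 1 with cyclic loess and 1 with detection on at least 12 arrays, and for DN4 minus DN3a it became 2, 2 and 1 with the first, second and last of these. Untreated DN4 against DN3b gave 2 members, 4 without background correction and with the authors' values, and 0 with no block, with any single sort left out (0 to 0) and without sorts 1 and 3 or 2 and 3. IL7-treated DN4 against DN3b gave 4, 0 with no block, 0 to 2 with a single sort left out and 0 without either pair of sorts. IL7-treated DN4 against DN3a gave 6, and 3 without sorts 2 and 3. Over all genes, no replicate block gave 905, 417 and 103 genes changed by IL7 in place of 1850, 865 and 215, and 37, 16 and 128 differences of IL7 changes in place of 150, 27 and 473. Without background correction the differences numbered 348, 97 and 727. With the probe of highest F statistic the 9 members kept the same probes. Fewer arrays enter the fits that leave out sorts, and for the other settings the cause was not tested. The offset added to the intensities understates the changes of dim probes.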
